A study of Homo sapiens with 24 samples.

Results

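The data described here are the RNA profiles of cells labelled HCC1954 that carry an shRNA against TFAP2C, set against those of SKBR3 cells given a non-targeting siRNA. Both are labelled as HER2-positive breast carcinoma lines, and the question asked of the comparison was which lineage and identity genes the knockdown population expressed and how far its profile resembled that of a breast line. The members were the 3 samples of the group HCC1954_shAP2C and the 3 samples of the group SKBR3_siNT, 6 of the 24 samples of the series, which form 8 groups of 3. They were found by group name, and their values were matched by transcript accession and summed to 19065 protein-coding gene symbols.

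HCC1954_shAP2C (the knockdown cells in what follows) were, per the labels, stable clones made with a lentiviral shRNA (TRCN0000019745), and HCC1954_shNT was their control with the non-targeting vector SHC002. SKBR3_siNT, HCC1954_siNT and the corresponding siAP2C groups were transfected with siRNA by lipofectamine RNAiMAX for 72 to 96 h, and all cells were used at passages 5 to 10. No authentication of the lines was done by the submitters, per the labels, which also do not tell whether the samples within a group were grown as separate cultures. The deposited column pair of the HCC1954 siRNA table names no line, so it was read as HCC1954, the line that the other tables leave over. Line, knockdown, delivery and deposited table all differ between the knockdown cells and SKBR3_siNT, so they cannot be told apart in that comparison. The group labelled HCC1954_shAP2C stood apart from both HCC1954 controls in genes that mark the line, with LDHB at 434 FPKM against 0.0675 and 0, TP63 at 0 against 33.3 and 13.7, and HBE1 at 138 against 0 and 0. Whether these cells are HCC1954 was not tested, and every comparison with an HCC1954 control below rests on the label.

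Each value is the authors' pooled FPKM (fragments counted per unit of transcript length and of mapped fragments), 1 for the 3 samples of a group, so there is no spread between replicates, no depth and no test for the comparison with SKBR3. Because the tables were normalized separately, each group was multiplied by 1 constant (0.939 for the knockdown cells) that set its median ratio to SKBR3_siNT at 1. Levels below are rescaled FPKM and, where 4 follow each other, stand for the knockdown cells, SKBR3_siNT, HCC1954_shNT and HCC1954_siNT. Ratios are differences of log2(rescaled FPKM + 1), which understates the change of low genes, and genes are called 4-fold apart when that difference reaches 2. At 1 FPKM or more, 11490 genes were expressed in the knockdown cells, 10971 in SKBR3_siNT, 11385 in HCC1954_shNT and 11281 in HCC1954_siNT.

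TFAP2C encodes AP-2γ, a transcription factor of the AP-2 family that binds GC-rich sites and is known for maintaining luminal gene expression and for activating ERBB2 in breast carcinoma. A breast epithelial line is usually recognised by a shared set of genes: simple keratins and luminal factors such as FOXA1, GATA3 and SPDEF, or, in basal-like lines, KRT5, KRT17 and TP63. HOX genes record the position along the body axis that a cell's precursors came from, and globin, intestinal or neural genes are normally silent in breast epithelium.

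TFAP2C was at 3.25 FPKM in the knockdown cells, 157 in SKBR3_siNT, 75.8 in HCC1954_shNT and 88.2 in HCC1954_siNT. The level in the knockdown cells was below all 3 controls, and below the 20.9 of HCC1954_siAP2C and the 57.3 of SKBR3_siAP2C. The gene lies at chr20:55204358-55214338 (hg19, as are the positions of genes below).

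The promoters of 3 genes on which the account turns are shown because each gene had little or no RNA in HCC1954_shNT and a clear level in the knockdown cells. LDHB was also high in SKBR3_siNT. They are the 250 bases before the RefSeq start (GRCh38.p14), with CpG dinucleotides in capitals.
LDHB (chr12:21657843-21658092, minus strand): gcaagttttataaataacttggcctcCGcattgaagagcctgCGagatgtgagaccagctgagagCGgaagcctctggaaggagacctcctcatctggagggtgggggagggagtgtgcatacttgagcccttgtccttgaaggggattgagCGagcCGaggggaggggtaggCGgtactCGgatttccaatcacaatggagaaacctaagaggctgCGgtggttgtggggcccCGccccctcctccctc
CDX2 (chr13:27969316-27969565, minus strand): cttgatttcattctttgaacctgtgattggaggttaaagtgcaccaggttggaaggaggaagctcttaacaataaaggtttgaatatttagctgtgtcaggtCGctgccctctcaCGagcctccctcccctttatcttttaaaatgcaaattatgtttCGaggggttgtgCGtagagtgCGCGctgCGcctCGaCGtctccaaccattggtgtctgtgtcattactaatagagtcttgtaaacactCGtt
MSX1 (chr4:4859415-4859664, plus strand): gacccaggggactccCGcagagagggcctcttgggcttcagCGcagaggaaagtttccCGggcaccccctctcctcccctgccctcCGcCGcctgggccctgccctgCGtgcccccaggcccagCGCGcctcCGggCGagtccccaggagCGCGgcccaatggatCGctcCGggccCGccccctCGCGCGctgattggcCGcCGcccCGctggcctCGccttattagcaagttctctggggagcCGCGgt
LDHB had 9 CpG in this window, CDX2 10 and MSX1 24, against a median of 17 over the 15843 promoter windows in the RefSeq table. Of all windows, 29.7% held fewer CpG than LDHB, 31.4% fewer than CDX2 and 68.7% fewer than MSX1. The AP-2 motif GCCNNNGGC, a palindrome that reads the same on both strands, had 0 matches in these 3 windows and occurred in 24.2% of all windows. These counts describe the letters of the windows, and no deposited value measures methylation or binding there.

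Across all protein-coding genes the knockdown cells stood about as far from SKBR3 as from the HCC1954 controls. Spearman's correlation of the knockdown cells was 0.854 with SKBR3_siNT, 0.873 with HCC1954_shNT and 0.853 with HCC1954_siNT. Between the control groups of the 2 lines it was 0.891 for HCC1954_shNT with SKBR3_siNT and 0.890 for HCC1954_siNT with SKBR3_siNT, above all 3 values of the knockdown cells. That order did not hold under each alternative. Over all symbols in place of protein-coding genes the knockdown cells had 0.885 with HCC1954_shNT and 0.872 with SKBR3_siNT, above the 0.866 of HCC1954_siNT with SKBR3_siNT, and over genes of at least 1 FPKM in 1 of the pair they had 0.742 with HCC1954_shNT against 0.741. The 2 controls of HCC1954, which differ in delivery and table, had a correlation of 0.949. These correlations are across genes, which are not replicates, and groups in the same table share its normalization.

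Of all genes, 828 were at least 4-fold higher (4.34%) and 857 at least 4-fold lower (4.5%) in the knockdown cells than in SKBR3_siNT. The balance of the 2 directions depended on the scaling, with 1033 higher and 742 lower when sums were set equal, 997 and 767 with equal upper quartiles, and 904 and 816 with no rescaling. The same count of genes apart was 1685 (8.84%), against 1267 (6.65%) for HCC1954_shNT and 1337 (7.01%) for HCC1954_siNT set against the same SKBR3_siNT. In HCC1954_shNT 3.62% of genes were higher and 3.03% lower than in SKBR3_siNT, and in HCC1954_siNT 4.05% were higher and 2.96% lower. Between the knockdown cells and HCC1954_shNT 7.16% of genes were 4-fold apart, and between the 2 HCC1954 controls 2.45%. After transient knockdown the share 4-fold apart from each line's siNT was 0.178% in SKBR3 and 0.0315% in HCC1954.

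**Figure D1:**
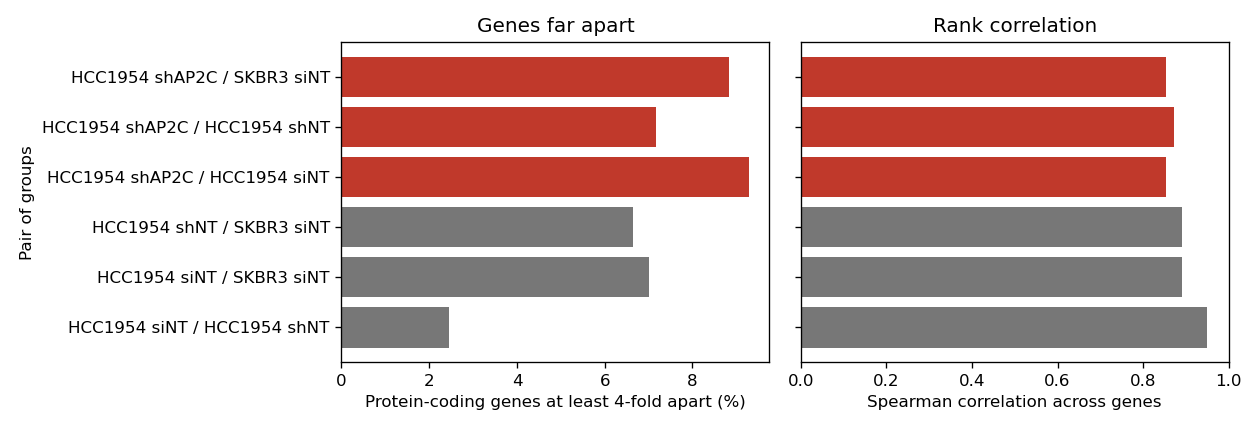
Agreement between groups over 19065 protein-coding genes, as the percentage of genes at least 4-fold apart on log2(rescaled FPKM + 1) and as Spearman's correlation; each bar is 1 pair of pooled groups and has no error because each group has 1 value per gene. Pairs with the HCC1954 shRNA knockdown have 7.16% to 9.29% of genes apart, and pairs of control groups 2.45% to 7.01%.

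**Figure D2:**
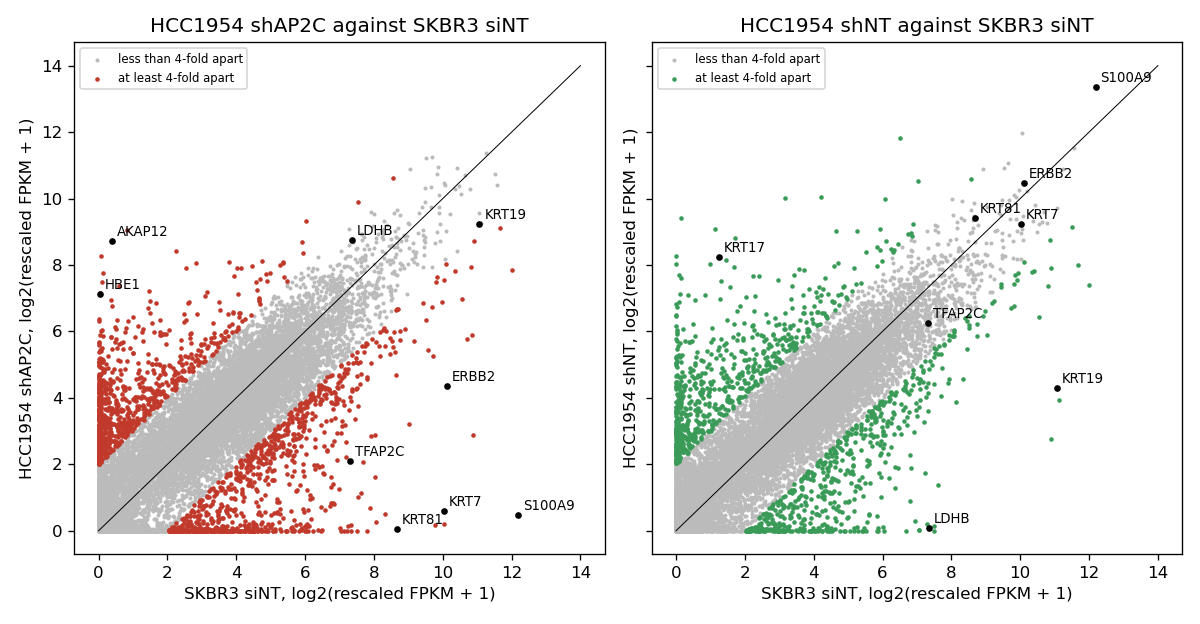
Levels as log2(rescaled FPKM + 1) of each protein-coding gene in the knockdown cells and in HCC1954_shNT (vertical axes) against SKBR3_siNT (horizontal axes), 1 point per gene. The cloud is wider in the knockdown comparison, where 8.84% of genes are at least 4-fold apart, than in the control comparison, where 6.65% are.

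LDHB, HBE1 and KRT19 were the markers named for this population, and all were high in it. LDHB encodes the B subunit of lactate dehydrogenase (chr12:21788276-21810789). Its level was 434 FPKM in the knockdown cells, 162 in SKBR3_siNT, 0.0675 in HCC1954_shNT and 0 in HCC1954_siNT, so the knockdown cells and SKBR3 were high and both HCC1954 controls were at or near 0. The log2 ratio of the knockdown cells to SKBR3_siNT was 1.41, short of 4-fold. LDHB stood at the 99.6th percentile of all genes in the knockdown cells and at the 28.0th in HCC1954_shNT. Against HCC1954_shNT, the authors' deposited table gives LDHB a q of 0.0685, which misses 0.05, although the deposited FPKM are 0.0721 and 460. LDHA, which encodes the A subunit, was expressed in every group (442, 307, 301 and 115 FPKM).

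HBE1 encodes the embryonic ε-globin chain (chr11:5289580-5291373) and was at 138 FPKM in the knockdown cells, 0.0299 in SKBR3_siNT and 0 in both HCC1954 controls. Only the knockdown cells had a level above 1 FPKM among the 6 groups with a genome-wide table, the siAP2C groups being at 0.167 in SKBR3 and 0 in HCC1954. In the authors' deposited table HBE1 rose against HCC1954_shNT with a q of 1.21e-04.

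KRT19 encodes a simple epithelial keratin (chr17:39679869-39684641). Its level was 595 FPKM in the knockdown cells, 2135 in SKBR3_siNT, 18.7 in HCC1954_shNT and 7.17 in HCC1954_siNT. It was among the highest genes in the knockdown cells (99.8th percentile) and in SKBR3_siNT, while HCC1954_shNT had it at the 77.4th percentile. On KRT19 and LDHB, the knockdown cells had levels nearer to SKBR3 than to either control of HCC1954.

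**Figure D3:**
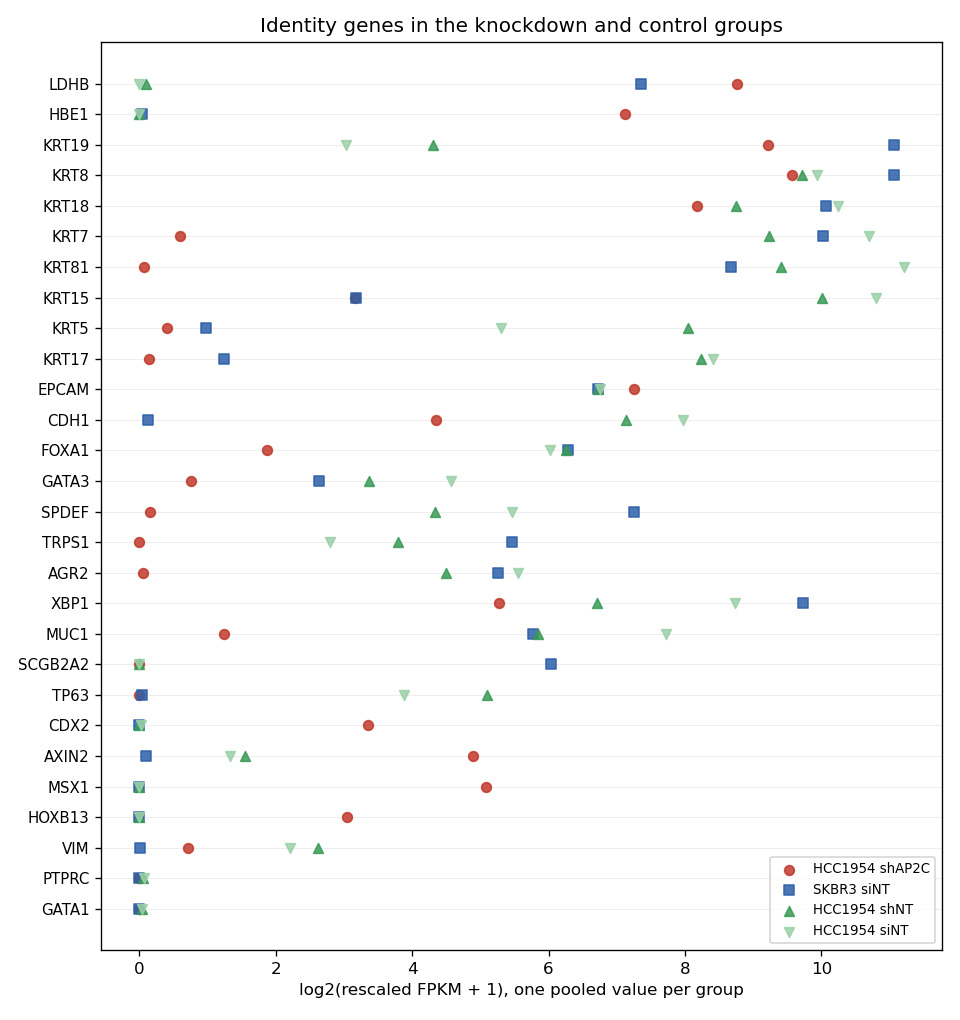
Levels of selected identity genes as log2(rescaled FPKM + 1) in the knockdown cells and 3 control groups, 1 pooled value per group and gene. LDHB and KRT19 are high in the knockdown cells and SKBR3, HBE1 only in the knockdown cells, and the luminal factors SPDEF and TRPS1 only in controls. XBP1 and FOXA1 are lower than in the controls but above 1 FPKM in the knockdown cells.

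Luminal breast genes were low in the knockdown cells. Of 30 listed, 0 were at least 4-fold higher and 15 at least 4-fold lower than in SKBR3_siNT, with a median log2 ratio of -2.23 against 0 over all genes. HCC1954_shNT had 9 of the 30 and HCC1954_siNT 8 of the 30 at least 4-fold lower than the same SKBR3_siNT. At 1 FPKM or more were 11 in the knockdown cells, 22 in SKBR3_siNT and 20 in each HCC1954 control. Against HCC1954_shNT, 14 of the 16 tested in the authors' deposited table fell and 1 rose, where over all tested genes 36.5% rose and 38.9% fell. Those shares, and the 4.34% higher and 4.5% lower than SKBR3_siNT over all genes, are the scale for every list below.

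The luminal transcription factors were among those lowest relative to SKBR3. FOXA1, which opens chromatin for hormone receptors, was at 2.67 FPKM in the knockdown cells and 76.8, 75.3 and 63.7 in the controls. GATA3, a factor of luminal differentiation, was at 0.686 FPKM against 5.23, 9.35 and 22.6. SPDEF, a factor of secretory epithelium, was at 0.112 FPKM against 152, 19.1 and 43.0. TRPS1 was at 0 FPKM in the knockdown cells and at 43.1, 12.9 and 5.93 in the controls. For each of these factors the knockdown cells had the lowest level of the 4 groups.

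Products of differentiated luminal cells followed the same order. AGR2, a secretory-pathway protein, was at 0.0412 FPKM in the knockdown cells against 37.4, 21.5 and 45.8 in the controls, and the mucin MUC1 at 1.36 against 53.5, 56.7 and 209. XBP1, a factor of the secretory stress response, was lower but still expressed (37.6 FPKM against 848, 103 and 426). Other luminal genes differed between the 2 lines themselves. CA12, a carbonic anhydrase, was at 3.37 FPKM in the knockdown cells, 121 in SKBR3_siNT, 0.226 in HCC1954_shNT and 1.10 in HCC1954_siNT. SCGB2A2 (mammaglobin) was at 64.9 FPKM in SKBR3_siNT and at 0 in the other 3 groups. EHF, an epithelial ETS factor, was at 19.9 FPKM in the knockdown cells and 14.3 in SKBR3_siNT.

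The knockdown cells expressed simple keratins and few others. Of 36 keratins 0 were 4-fold higher and 5 lower than in SKBR3_siNT, and 15 of 19 tested fell against HCC1954_shNT, with 1 rising (KRT19), in the authors' deposited table. KRT8 was at 758 FPKM in the knockdown cells and 2137, 841 and 974 in the controls, and its partner KRT18 at 288 against 1072, 430 and 1213. KRT7, a keratin of glandular epithelium, was at 0.517 FPKM against 1043, 598 and 1660. KRT81, a hair-type keratin expressed in breast lines, was at 0.0431 FPKM against 408, 681 and 2364, and KRT80 at 1.48 against 107, 60.6 and 56.7. The knockdown cells were thus KRT8, KRT18 and KRT19 positive with little KRT7, a combination that no control group had. KRT81 has close copies among the hair keratins, between which reads can be shared. In the authors' deposited table KRT81 and KRT86 were tested but not called, with q of 0.298 and 0.296. Their deposited FPKM were 727 and 29.3 in HCC1954_shNT and 0.0458 and 0.0402 in the knockdown cells.

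Basal genes separated the knockdown cells from the HCC1954 controls as well. Of 23 basal and myoepithelial genes, 6 were 4-fold higher and 0 lower than in SKBR3_siNT, whereas 14 were 4-fold higher in each HCC1954 control. Against HCC1954_shNT, 14 of 16 tested fell and 0 rose in the authors' deposited table. KRT17 was at 0.103 FPKM in the knockdown cells, 1.36 in SKBR3_siNT, 300 in HCC1954_shNT and 340 in HCC1954_siNT. KRT5 was at 0.322 FPKM against 0.970, 263 and 38.4, and TP63, the master factor of basal epithelium, at 0 against 0.0290, 33.3 and 13.7. On these keratins and TP63 the knockdown cells and SKBR3 were both low. The members higher than in SKBR3 were adhesion genes and others, led by CDH3 (P-cadherin), at 47.1 FPKM against 0, 90.0 and 143, and ITGA6 (integrin α6), at 20.3 against 0.0105, 18.5 and 11.9.

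Most epithelial adhesion genes were expressed in the knockdown cells, several of them at a low level. Of 35 genes 32 reached 1 FPKM, 2 were 4-fold higher and 9 lower than in SKBR3_siNT, and 27 of 34 tested fell and 4 rose against HCC1954_shNT in the authors' deposited table. EPCAM, an epithelial adhesion molecule, was at 151 FPKM in the knockdown cells and 105, 105 and 106 in the controls. CDH1 (E-cadherin) was at 19.4 FPKM, where SKBR3_siNT had 0.0894, HCC1954_shNT 139 and HCC1954_siNT 249. ESRP1, an epithelial splicing regulator, was at 62.0 FPKM against 11.9, 137 and 209. The tight-junction genes CLDN3 and CLDN4 were lower than in SKBR3_siNT (13.5 against 120 FPKM and 79.8 against 730), and CLDN1 was at 0.0123 FPKM against 3.12, 132 and 61.9.

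ERBB2, the gene that defines both lines as HER2-positive (chr17:37844337-37886816), was at 19.6 FPKM in the knockdown cells, 1109 in SKBR3_siNT, 1427 in HCC1954_shNT and 4461 in HCC1954_siNT. After siRNA against TFAP2C it was at 647 FPKM in SKBR3 and 3829 in HCC1954. Of 17 genes of the 17q12 amplicon region 9 were 4-fold lower and 0 higher in the knockdown cells than in SKBR3_siNT, with a median log2 ratio of -2.01. In the same set HCC1954_shNT had 3 lower and 2 higher, and HCC1954_siNT 2 lower and 7 higher. Against HCC1954_shNT, 9 of 11 tested fell and 1 rose in the authors' deposited table.

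The neighbours of ERBB2 showed the same order. GRB7, an adaptor of receptor kinases, was at 6.65 FPKM in the knockdown cells against 120, 421 and 1869, and MIEN1 at 24.6 against 402, 928 and 1115. STARD3, a cholesterol transporter, was at 9.45 FPKM against 115, 467 and 1200, and PGAP3, which remodels GPI anchors, at 5.48 against 113, 349 and 570. Toward the edges the lines differed from each other: MED1, a Mediator subunit, was at 28.2 FPKM in the knockdown cells, 152 in SKBR3_siNT, 15.3 in HCC1954_shNT and 18.3 in HCC1954_siNT. PSMD3, a proteasome subunit, was at 90.2 FPKM against 260, 90.8 and 95.3. From STARD3 to GRB7 each of these genes was lowest in the knockdown cells, and at PSMD3 the knockdown cells were near the HCC1954 controls. MED1 was nearer to the HCC1954 controls than to SKBR3_siNT. It was, however, the gene of this region that rose against HCC1954_shNT in the authors' deposited table, with a q of 1.21e-04. The files hold RNA only, so whether gene copy number differed was not tested.

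**Figure D4:**
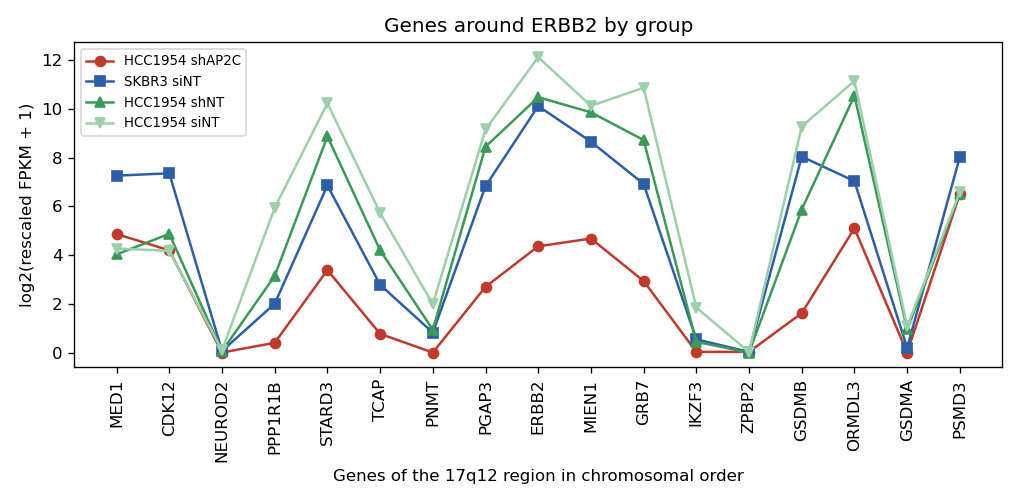
Levels as log2(rescaled FPKM + 1) of genes across the 17q12 region in chromosomal order from MED1 to PSMD3, 1 line per group and 1 pooled value per gene. ERBB2 is at 19.6 FPKM in the knockdown cells and at 1109 FPKM or more in the 3 control groups.

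Other receptors of the family were less far from the controls than ERBB2 was, and 3 ligands were high. EGFR was at 18.2 FPKM in the knockdown cells and 27.5, 31.4 and 22.1 in the controls, and ERBB3 at 11.8 against 51.8, 12.8 and 37.0. The EGFR ligands AREG (amphiregulin), EREG (epiregulin) and TGFA were the 3 of 20 ERBB and AP-2 genes that were 4-fold higher than in SKBR3_siNT, and 4 were lower. AREG was at 123 FPKM in the knockdown cells against 0.296, 4.83 and 10.1, and EREG at 143 against 0.0218, 1.59 and 0.469. TGFA, at 14.3 FPKM, was at 0.0281 in SKBR3_siNT but at 9.14 and 22.4 in the HCC1954 controls. TFAP2A, the AP-2 paralog, was at 3.22 FPKM against 23.8, 23.6 and 18.9.

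Expression from the globin loci was limited to a few genes and was not joined by an erythroid programme. Of 13 globin-family genes 3 were 4-fold higher than in SKBR3_siNT (HBE1, HBG2 and HBA2) and 1 was lower, MB (myoglobin), at 0.789 FPKM against 108, 61.7 and 73.0. HBG2, a fetal γ-globin, was at 5.74 FPKM in the knockdown cells and 0 in the controls, and the adult β-globin genes HBB and HBD were at 0. HBG1 and HBG2, and HBA1 and HBA2, are near-identical copies whose reads can be shared. Of 24 erythroid genes 0 were 4-fold higher or lower, their summed level was 21.2 FPKM in the knockdown cells and 12.9, 12.9 and 13.1 in the controls, and GATA1, KLF1, ALAS2 and AHSP, which define red-cell differentiation, were under 0.1 FPKM. Beside HBE1 on chromosome 11, the olfactory receptor genes OR51B5 (68.9 FPKM against 0.390, 0 and 0), OR51B4 (22.1 FPKM) and OR51B2 (4.92 FPKM) were also expressed. Overlapping transcripts at this locus can share reads with HBE1, and strand was not stated for the counting.

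Among lineages other than breast, no list was expressed as a whole. Of 26 intestinal and colonic genes 4 were 4-fold higher and 2 lower than in SKBR3_siNT, and 16 were under 0.1 FPKM in the knockdown cells. CDX2, the homeobox factor of intestinal epithelium (chr13:28535055-28543505), was at 9.16 FPKM in the knockdown cells, 0 in SKBR3_siNT, 0 in HCC1954_shNT and 0.0177 in HCC1954_siNT. In the authors' deposited table it rose against HCC1954_shNT with a q of 1.21e-04. AXIN2 and RNF43, feedback inhibitors of Wnt signalling, were at 28.6 FPKM (0.0697, 1.91 and 1.52 in the controls) and 18.6 FPKM (0.447, 4.62 and 7.89). EPHB2, a receptor of crypt cells, was at 6.08 FPKM, above SKBR3_siNT (0.221) but near HCC1954_shNT (5.88). The intestinal genes CDX1, VIL1, MUC2, GPA33, CDH17 and FABP1, and LGR5, a marker of crypt stem cells, were under 0.1 FPKM, and CEACAM6 was at 0 against 18.2, 154 and 356.

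Other lists gave single genes. Of 11 prostate genes 2 were higher and 1 lower: the homeobox factor HOXB13 was at 7.26 FPKM and at 0 in the controls, while KLK2 and KLK3, the kallikreins of prostate secretion, were under 0.1 FPKM. Of 11 kidney and Müllerian genes 2 were higher, MSLN (mesothelin, 6.40 FPKM against 0.0103 in SKBR3_siNT) and the factor PAX2 (3.15 against 0.0110). Of 22 neural and neuroendocrine genes 3 were higher and 0 lower, and the 4 tested all rose against HCC1954_shNT in the authors' deposited table. ENO2, neuron-type enolase, was at 35.2 FPKM against 0.0773, 2.80 and 0.411. TUBB3, a neuronal β-tubulin, was at 133 FPKM against 7.50, 28.2 and 11.5, and CKB, brain-type creatine kinase, at 242 against 15.1, 3.69 and 10.8. In that list 13 genes were under 0.1 FPKM.

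In the knockdown cells 0 genes were 4-fold apart from SKBR3_siNT among the 18 hepatocyte, 9 lung, 6 urothelial, 8 melanocyte and 12 matched pluripotent and germ cell genes. Of 26 leukocyte genes 0 were higher and 3 lower, and of 12 endothelial genes 0 and 3, so both lists gave only genes that SKBR3 expressed. They included LCP1 (L-plastin), at 0.154 FPKM against 66.1 in SKBR3_siNT, and CSF1R, the receptor of macrophage growth factor, at 0.0310 against 19.1. CDH5 (VE-cadherin) was at 0 against 10.8 in SKBR3_siNT, with 8.97 in HCC1954_shNT and 3.85 in HCC1954_siNT. Of 11 trophoblast genes 0 were higher and 2 lower, and of 11 muscle genes 1 was higher and 0 lower.

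Mesenchymal genes were mixed, with 4 of 25 higher and 1 lower than in SKBR3_siNT, and 5 of 10 tested rising and 3 falling against HCC1954_shNT in the authors' deposited table. FSCN1 (fascin, which bundles actin) was at 149 FPKM against 1.75, 4.65 and 1.94, and the kinase AXL at 11.5 against 0.0146, 2.41 and 0.448. COL6A1, a chain of collagen VI, was at 22.5 FPKM against 0.259, 8.52 and 1.29. VIM (vimentin) was at 0.631 FPKM in the knockdown cells against 0.00980, 5.11 and 3.63. Of 22 matched cancer-testis genes, which are expressed in germ cells and in tumours, 2 were higher and 4 lower. MAGEB2 was at 178 FPKM against 0.0662, 0.0258 and 0.0634, and CTAG2 at 0 against 180 in SKBR3_siNT and 0 in the HCC1954 controls.

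HOX genes gave a wide contrast with SKBR3. Of 39 HOX genes 14 were 4-fold higher and 1 lower than in SKBR3_siNT, with a median log2 ratio of 0.84, and 25 reached 1 FPKM in the knockdown cells against 5 in SKBR3_siNT. The HCC1954 controls had 7 and 6 of them 4-fold higher than SKBR3_siNT. Against HCC1954_shNT, 13 of 18 tested rose and 5 fell in the authors' deposited table.

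By cluster, the summed HOXA level was 146 FPKM in the knockdown cells, 0.0118 in SKBR3_siNT, 59.1 in HCC1954_shNT and 28.0 in HCC1954_siNT. HOXB summed to 144 FPKM against 0.0359, 60.8 and 87.1. SKBR3_siNT, then, had next to no HOXA or HOXB RNA, and its HOX expression came from HOXC. HOXC summed to 24.2 FPKM in the knockdown cells and 37.5, 63.2 and 52.7 in the controls, and HOXD to 3.40 against 0.0457, 0.741 and 0.104.

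The HOXB genes in use differed between the knockdown cells and the HCC1954 controls. HOXB5, HOXB6 and HOXB8 were at 9.88, 14.5 and 30.1 FPKM in the knockdown cells, and the highest level of any of the 3 in a control group was 0.135 FPKM. HOXB2 was at 0.689 FPKM in the knockdown cells, 0 in SKBR3_siNT, 32.1 in HCC1954_shNT and 63.9 in HCC1954_siNT. HOXB7, in contrast, was expressed in the knockdown cells and both HCC1954 controls (50.5 against 0.0159, 21.5 and 13.4 FPKM). In HOXA, HOXA9 was at 82.7 FPKM against 0, 36.7 and 11.1, and HOXA7 at 18.6 against 0, 0.128 and 0.0496. HOXC13 was the 1 member 4-fold lower than in SKBR3_siNT, at 3.61 FPKM against 19.7, 20.6 and 15.5.

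**Figure D5:**
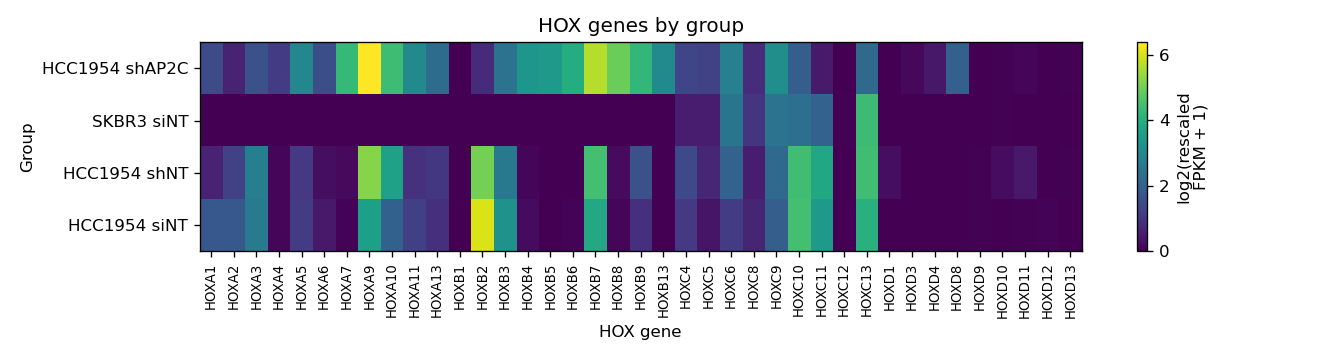
Heat map of log2(rescaled FPKM + 1) for 39 HOX genes, ordered by cluster and number, in 4 groups with 1 pooled value each. HOXA and HOXB are filled in the knockdown cells and nearly empty in SKBR3, and in the HCC1954 controls HOXB5, HOXB6 and HOXB8 are at or near 0.

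Of 98 lineage transcription factors 15 were 4-fold higher and 10 lower than in SKBR3_siNT, and 17 of 34 tested rose and 13 fell against HCC1954_shNT in the authors' deposited table. MSX1, a homeobox factor of embryonic mesenchyme and limb, was at 33.0 FPKM in the knockdown cells and 0 in the 3 controls. TCF7, a transcription factor of Wnt signalling, was at 12.1 FPKM against 0.316, 2.02 and 0.729, and TP73, which encodes p73, at 9.49 against 0.0504, 0.757 and 0.805. FOXC1 was at 28.7 FPKM against 0.205, 12.1 and 9.81, a level that the HCC1954 controls shared in part. The Iroquois factor IRX2 was at 0 FPKM in the knockdown cells against 32.4, 89.3 and 73.4. IRX3 and IRX5 were at 1.12 and 0.50 FPKM against 27.6 and 10.2 in SKBR3_siNT. Their deposited FPKM in HCC1954_shNT were 10.7 and 13.3. IRX4 of the same family went the other way, with deposited FPKM of 0.136 in HCC1954_shNT and 6.72 in the knockdown cells. Its q in the authors' deposited table was 0.293, which misses 0.05.

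Housekeeping and metabolic genes were set beside these contrasts. Of 26 reference genes 0 were 4-fold higher and 2 lower than in SKBR3_siNT, with a median log2 ratio of 0.13. Against HCC1954_shNT, 10 of the 26 rose and 15 fell in the authors' deposited table, so they were not unchanged there. Over all genes 4.34% were higher and 4.5% lower than in SKBR3_siNT, and 36.5% of tested genes rose and 38.9% fell against HCC1954_shNT. Of 38 lactate and energy isozymes 3 were higher and 3 lower, and 20 of 28 tested rose and 4 fell in the authors' deposited table. SLC16A1, the lactate transporter MCT1, was at 71.1 FPKM against 1.19, 13.1 and 12.5. Of 27 tumour suppressor and mismatch repair genes 2 were higher and 1 lower. Of 19 HLA and antigen presentation genes 3 were higher and 3 lower. B2M, the light chain shared by class I molecules, was at 258 FPKM in the knockdown cells against 1082 in SKBR3_siNT.

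Over all genes, the largest ratios to SKBR3_siNT joined genes shared with HCC1954 and genes seen in the knockdown cells alone. AKAP12, a scaffold of protein kinase A, was at 422 FPKM against 0.315, 0.828 and 0.12 (log2 ratio 8.33), and BMP4, a secreted growth factor, at 164 against 0.523, 2.04 and 1.56. MT1E, a metallothionein with close copies, was at 310 FPKM against 0.0575, 0 and 0, and HMGA2, a chromatin protein of embryonic tissue, at 79.3 against 0, 0.565 and 1.21. By contrast, MSN (moesin) was at 64.5 FPKM against 0.0650 in SKBR3_siNT, with 117 and 97.5 in the HCC1954 controls, and GPX1, a glutathione peroxidase, at 214 against 0.0961, 195 and 169. In the first set the knockdown cells stood apart from all controls, and in the second SKBR3 did.

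The lowest ratios were led by calcium-binding S100 genes. S100A9 was at 0.391 FPKM in the knockdown cells against 4667, 10438 and 5453 (log2 ratio -11.71), S100A8 at 0.142 against 1056, 4020 and 1484, and S100P at 0.121 against 881, 421 and 1296. TXNIP, an inhibitor of thioredoxin, was at 0 FPKM against 220, 70.2 and 567, and VGLL1, a cofactor of TEAD factors, at 0 against 140, 60.7 and 108. All of these were high in each control and at or near 0 in the knockdown cells. S100A9 was at 7593 FPKM in SKBR3_siAP2C and 3537 in HCC1954_siAP2C, and KRT7 at 1090 and 1628, so neither was low after siRNA.

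Genes that were on in 1 group alone were counted with all 4 groups in view, taking 10 FPKM or more as on and less than 0.5 as off. In the knockdown cells 50 genes were on that were off in the 3 controls, and 57 were off that were on in all 3. The same counts were 31 and 38 for SKBR3_siNT, 3 and 0 for HCC1954_shNT and 2 and 0 for HCC1954_siNT. Each of the last 2 groups was counted against the other, and Spearman's correlation between them was 0.949. With HCC1954_siNT left out, HCC1954_shNT had 43 and 21, SKBR3_siNT 36 and 48 and the knockdown cells 55 and 67. Among the genes on in the knockdown cells alone were NTSR1, a neurotensin receptor (56.5 FPKM), and MEF2C, a muscle and neural factor (24.8 FPKM). Among those off in the knockdown cells alone were AZGP1, PIGR, which carries antibodies across epithelia (0 FPKM against 62.6, 185 and 100.0), and BATF.

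Genes that separate the 2 lines were used to set the knockdown cells beside each of them. This count was chosen after values had been seen. Of 411 genes at least 4-fold higher in both HCC1954 controls than in SKBR3_siNT, the knockdown level was nearer to SKBR3 in 208 (50.6%) and nearer to HCC1954 in 203. Of 385 genes at least 4-fold higher in SKBR3_siNT, it was nearer to SKBR3 in 118 (30.6%) and nearer to HCC1954 in 267. The knockdown cells therefore held neither line's pattern as a whole. Of 3122 genes at 10 FPKM or more and alike within 2-fold in SKBR3 and both HCC1954 controls, 2425 were also within 2-fold in the knockdown cells, 117 were at least 4-fold lower and 7 at least 4-fold higher. Choosing genes expressed in the controls favours the lower direction.

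The authors' deposited table of the knockdown cells against HCC1954_shNT tested 9269 of these genes and called 6985 (75.4%) at a q under 0.05, with 3382 rising and 3603 falling. The counts of lists above that rest on that table are to be read against those shares, since most tested genes were called. A missing call does not mean a small difference. SPDEF (deposited FPKM 20.4 in HCC1954_shNT and 0.118 in the knockdown cells) had a q of 0.278. S100A8 (2687 and 0.151) had a q of 0.304, while S100A9 (11153 and 0.416) was called with a q of 0.00227.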

How the data were processed

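RNA was sequenced from 24 samples in 8 groups of 3, and 3 deposited comparison tables covering 6 groups were used. The labels' protocols name TruSeq RNA for the libraries. The submitters' processing notes list Bowtie 0.12.2, Cuffdiff without a version, and the build hg19. The FPKM values are the authors' own, 1 per group with its samples pooled, per the file headers. The q-value of each entry of the knockdown table is the authors' own, as deposited, and a call is a q under 0.05 with a completed test, taken from the accession of a symbol with the highest mean FPKM.

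Of 66321 RefSeq accessions, 65468 matched a symbol through a RefSeq name table and 853 did not. FPKM were summed over accessions, since 11070 of 19065 protein-coding symbols had more than 1, and rescaled by the median ratio to SKBR3_siNT over genes of at least 1 FPKM in both. A pseudocount of 1 was used, and no low-value filter. Depth per sample is unknown, so no interval is given and no count test was run.

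The members and the 29 gene lists were chosen with earlier results of these data known, and so support nothing by their choice. The genes named were TFAP2C, the 3 markers, up to 6 members of each list per direction past 4-fold and defining members near 0, the 20 largest ratios per direction, and the 15 highest genes low in all controls or the reverse. Listed genes named with smaller ratios, and the neighbours of HBE1, were chosen after their values were seen. Alternatives were other rescalings, pseudocount, fold rule, filter, gene set and accession choice. Calculations used Python 3.11.15, pandas 2.3.3, numpy 2.4.6 and scipy 1.17.1. Some genes that this rule names are not reported here.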

Additional observations from a re-analysis of the deposited data

How the results depend on the processing

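No paired analysis was possible because each deposited column pools the 3 samples of a group, and for the same reason no replicate could be left out in turn. Of the results that answer a comparison, 77 recomputed values stayed within 1.5 times the count, 0.05 of the correlation, 0.5 of the list median or, for LDHB, HBE1 and KRT19, on the same side of 4-fold with the same sign, and 15 moved. Within that last rule the log2 ratio of HBE1 went from 7.08 to 10.06 with a pseudocount of 0.1, and that of KRT19 from -1.84 to -1.18 with quantile normalization. Of the other list medians 148 stayed and 2 moved. The balance of directions turned, from 828 higher and 857 lower to more higher than lower, with equal sums (1033 and 742), equal upper quartiles (997 and 767), no rescaling (904 and 816), a pseudocount of 0.1 and the 2-fold rule. Over all symbols the knockdown cells correlated with HCC1954_shNT (0.885) and SKBR3_siNT (0.872) above HCC1954_siNT with SKBR3_siNT (0.866). A pseudocount of 0.1 gave 1750 genes at least 4-fold higher and 1453 lower in the knockdown cells than in SKBR3_siNT, and medians of -3.50 for luminal, -2.90 for 17q12, 2.98 for HOX, -1.18 for keratin and -0.676 for trophoblast genes. The 2-fold rule gave 2547 higher and 2302 lower. Over genes of at least 1 FPKM in 1 of the pair, Spearman's correlation fell to 0.694 for the knockdown cells with SKBR3_siNT, 0.742 with HCC1954_shNT and 0.681 with HCC1954_siNT. The same filter gave 0.753 for HCC1954_shNT with SKBR3_siNT, 0.741 for HCC1954_siNT with SKBR3_siNT and 0.864 for the HCC1954 controls. Requiring also a 2-fold change in the authors' deposited table left 1553 genes that rose and 1767 that fell. Scaling to equal sums instead would raise the knockdown cells by 0.248 on the log2 scale relative to SKBR3_siNT. A lower pseudocount enlarges the ratios of genes at low FPKM, and a lower fold rule admits smaller changes. Depth is unknown, and low FPKM carry an unknown counting error.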
